A study of Mus musculus with 12 samples.

Results

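Gas5 and 6 small nucleolar RNA host genes (Snhg1, Snhg3, Snhg5, Snhg6, Snhg8 and Snhg12) were followed through the bone marrow of mice given cyclophosphamide alone or with QJSB or leucogen. They were found in the expression table by gene name, and each of the 7 names had 1 row among the 34745 genes listed. RNA came from total femoral marrow of 12 male mice of the outbred ICR stock, divided into 4 groups of 3. Normal mice received saline and no cyclophosphamide. Model mice received saline by mouth for a week and, on days 5 to 7, daily injections of 80 mg/kg cyclophosphamide, an alkylating drug toxic to cells in division. QJSB mice received the same cyclophosphamide and, by mouth for 1 week, 3 g/kg per day of Qi-Jing-Sheng-Bai granule, a herbal formula. Leucogen mice received the same cyclophosphamide and, by mouth, leucogen at a daily 20 mg/kg, a medicine used against low white cell counts. The table heads its columns Blank, Model, Positive and Stilbene. Blank was taken for normal, Positive for leucogen and Stilbene, the name then remaining, for QJSB, so each group name below rests on that reading of the headings. Cyclophosphamide was given together with each drug, so no group shows a drug without it.

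A small nucleolar RNA (snoRNA) is a short RNA that guides chemical modification of ribosomal and other RNAs. Box C/D snoRNAs direct ribose methylation by fibrillarin, and box H/ACA snoRNAs direct the making of pseudouridine by dyskerin. In mammals most snoRNAs lie in introns and are cut out of them after splicing, so the host gene is transcribed once and gives both a snoRNA and a spliced transcript. In Gas5 and the Snhg genes the spliced RNA encodes no long protein. It is often short-lived, because ribosomes that reach its early stop codons bring on nonsense-mediated decay. Many hosts begin with a run of pyrimidines at the 5′ end, the signal that ties translation of ribosomal protein mRNAs to growth, and Gas5 (growth arrest specific 5) was named for its accumulation in cells that stop growing.

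What these hosts carry is shown by 3 of their snoRNAs, taken from the GENCODE M21 transcripts (GRCm38). For the box C/D RNAs Snord47 of Gas5 (chr1:161038082-161038158, plus strand, 77 bases) and Snord50a of Snhg5 (chr9:88521529-88521600, minus strand, 72 bases) the capitals mark the letters TGATGA of box C and CTGA of box D. For the box H/ACA RNA Snora24 of Snhg8 (chr3:123507937-123508066, minus strand, 130 bases) they mark the ACA that lies 3 bases before the 3′ end.
Snord47: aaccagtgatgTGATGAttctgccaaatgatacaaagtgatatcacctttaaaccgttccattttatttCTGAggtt
Snord50a: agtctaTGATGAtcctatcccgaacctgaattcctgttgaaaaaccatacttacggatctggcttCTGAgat
Snora24: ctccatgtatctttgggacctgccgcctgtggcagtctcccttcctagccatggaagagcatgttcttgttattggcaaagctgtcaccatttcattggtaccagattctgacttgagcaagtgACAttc

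M21 lists 29 snoRNA gene identifiers inside the 7 hosts on the same strand, at 27 separate positions. Gas5 holds 9 of these positions, Snhg1 8, Snhg12 4, Snhg3 and Snhg5 2 each, and Snhg6 and Snhg8 1 each. The snoRNAs themselves were not analysed here, so all values below are of the host transcripts.

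The start regions of the hosts are shown next. Whether they bear on the levels given below was not tested. RefSeq promoter windows (GRCm38.p6, 300 bases of which 250 lie before the annotated start) were matched for 6 of the 7 members, Gas5 with 2 starts. The stretches printed run from 30 bases before the start, and capitals mark the longest unbroken run of C and T that begins within 15 bases of the start on the transcribed strand.
Gas5, the later start, chr1:161035136-161035215, plus: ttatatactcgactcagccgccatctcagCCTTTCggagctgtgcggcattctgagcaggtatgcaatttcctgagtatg
Snhg1, chr19:8723457-8723536, plus: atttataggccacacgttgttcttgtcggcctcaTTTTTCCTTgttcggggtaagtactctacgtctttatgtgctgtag
Snhg5, chr9:88522848-88522927, minus: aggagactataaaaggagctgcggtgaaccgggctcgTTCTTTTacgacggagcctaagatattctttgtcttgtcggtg
Snhg8, chr3:123508287-123508366, minus: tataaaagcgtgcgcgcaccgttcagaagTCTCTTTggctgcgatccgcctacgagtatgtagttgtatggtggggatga
Snhg12, chr4:132308648-132308727, plus: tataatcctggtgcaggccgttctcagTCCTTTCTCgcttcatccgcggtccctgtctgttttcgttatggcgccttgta

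A run of at least 7 such bases was found in 4 of the 7 windows (Snhg1, Snhg5, Snhg8 and Snhg12), against 20.5% of the 32851 promoters of this length. These runs began 4 bases after the annotated start at Snhg1 and 7 bases after it at Snhg5. At Snhg8 and Snhg12 they began 1 base and 3 bases before it. The run was 6 bases long at the later Gas5 start, 5 at Snhg3 and 3 at the earlier Gas5 start. The letters TATAAA, on either strand of the whole window, were in 4 of the 7 windows (Snhg1, Snhg3, Snhg5 and Snhg8), against 13.6% of all promoters. At Snhg5 and Snhg8 they lay 23 and 30 bases before the start on the transcribed strand. The match at Snhg1 lay 29 bases before the start on the opposite strand, and that at Snhg3 lay 22 bases after the start. CCAAT, on either strand, was in 3 windows (Snhg3, Snhg5 and Snhg8) against 37.4%, and CACGTG, which reads the same on both strands, was in 0 against 7.15%. These are matches of letters only.

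The hosts lie on 5 chromosomes, and their coordinates in the table equal those of M21 for 6 of the 7. Gas5 (ENSMUSG00000053332) spans chr1:161034422-161038539 on the plus strand and Snhg6 chr1:9941959-9944118 on the minus strand. Snhg3 (chr4:132348014-132353686, minus strand) and Snhg12 (chr4:132308678-132311024, plus strand) are neighbours on chromosome 4. Snhg1 spans chr19:8723475-8726443 on the plus strand, Snhg5 chr9:88521050-88522929 and Snhg8 chr3:123507552-123508404 on the minus strand. M21 calls Snhg6 and Snhg12 lincRNA and the other members processed transcripts. Almost all of Snhg3 (5592 of 5673 bases) lies within the span of Rcc1 on the same strand, so its reads may be shared with that gene, which encodes a chromatin-bound exchange factor for the GTPase Ran. Zbtb37 overlaps the start of Gas5 by 428 bases and Mcmdc2 the end of Snhg6 by 127 bases, both on the opposite strand. The libraries were strand-specific, but whether the counting used strand is not given in the sources used here.

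Library totals ran from 11172547 to 18545198 counts, of which 2803 to 6026 fell on the 7 members. A member had 91 to 2908 counts in a library. Every pair of mice within a group differed by more than counting error over all genes, most of all QJSB 1 from QJSB 2 (chi-square of 107 per degree of freedom, against 10.9 to 85.3 in the other pairs). QJSB 1 also stood apart from QJSB 2 and QJSB 3 in most of the members, and results that rest on it are given with and without it. It was the highest QJSB library at each of the 7 members, so leaving it out lowers the QJSB means by construction. More calls without it are therefore not separate evidence. In normal mice the granulocyte, erythroid, pre-B and B cell genes of the marrow were all detected in every library. In each cyclophosphamide library the erythroid genes summed to 151 to 1600 CPM (counts scaled to the same library size by the TMM method), against 12800 to 16400 CPM in normal.

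Levels of the same gene in different libraries are given in CPM and levels of different genes in FPKM, which the authors computed per length of transcript. On the FPKM scale Snhg3 (13.1 ± 4.37, SD over 12 libraries), Gas5 (12.5 ± 3.23) and Snhg8 (12.3 ± 2.79) took the first 3 places in every library, in changing order, and cannot be ranked beyond their spread. Snhg8 was first in 5 libraries, Snhg3 in 4 and Gas5 in 3. Snhg5 (6.93 ± 2.52 FPKM), Snhg6 (5.02 ± 1.33) and Snhg1 (4.66 ± 1.19) followed, also within each other's spread, and Snhg12 was last in all 12 libraries (2.99 ± 0.958). This order depends on the lengths used. The counts and FPKM together give Gas5 a length 6.67 times that of Snhg8. That ratio is larger than in M21, where the merged exons have 3760 bases for Gas5 and 853 for Snhg8. Gas5 thus stands lower against Snhg8 in FPKM than M21 lengths would place it. In plain counts Gas5 held 42.2% to 54.5% of the reads on the 7 members.

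**Figure D1:**
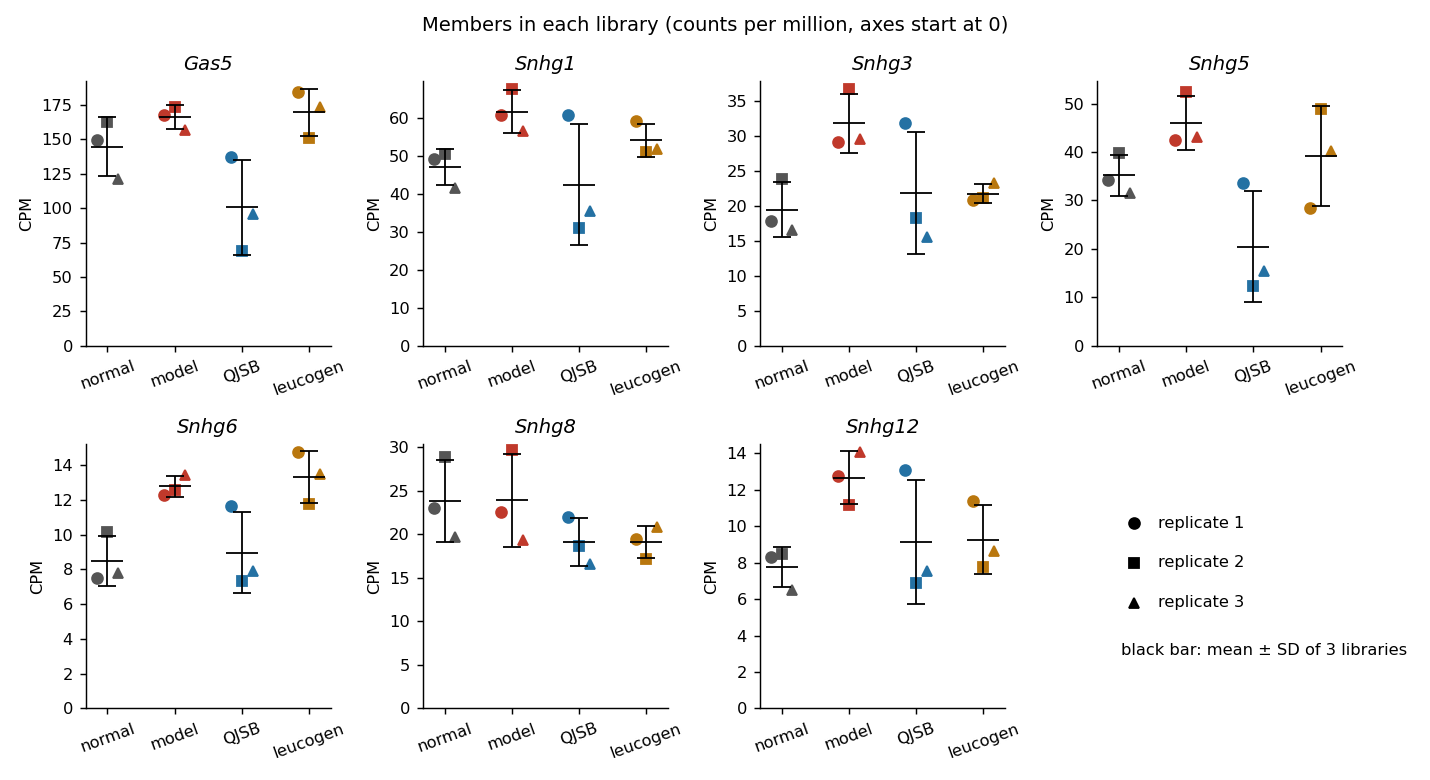
CPM (vertical axes, from 0) of the 7 members in each of the 12 libraries by group, with the replicate shown by the symbol and the mean ± SD of 3 libraries as a black bar. QJSB 1 lies near the model libraries for most members, while QJSB 2 and QJSB 3 lie lower, as at Snhg5 with 33.5, 12.3 and 15.5 CPM.

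The comparison of model with normal asked how the hosts stood in marrow after cyclophosphamide. Snhg3 and Snhg12 rose and the other 5 members did not pass the cutoff of the fits. A gene was called when it differed by more than 1.5-fold with a Benjamini-Hochberg adjusted p under 0.05 from edgeR's quasi-likelihood test over all genes tested, and 35.1% of 14752 genes were called here (16.1% higher). Snhg3, host of 2 copies of an H/ACA snoRNA, had 17.8, 23.9 and 16.5 CPM in normal 1 to 3 and 29.1, 36.7 and 29.5 CPM in model 1 to 3. The model libraries were all above the normal ones, and the log2 fold change was 0.70 (standard error 0.19, edgeR adjusted p = 0.0176). Rcc1, which shares its span, had 47.3 ± 4.67 CPM (SD, n = 3) in normal and 52.7 ± 11.7 in model, with a log2 fold change of 0.15.

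Snhg12, a host of both snoRNA classes, had 8.31, 8.46 and 6.48 CPM in normal and 12.8, 11.2 and 14.1 CPM in model. Again the groups did not overlap, and the log2 fold change was 0.70 (standard error 0.19, edgeR adjusted p = 0.019). Snhg6, host of Snord87, was just inside the p threshold and just under the fold cutoff, with 7.51, 10.2 and 7.77 CPM against 12.3, 12.6 and 13.4 CPM (log2 fold change 0.58, edgeR adjusted p = 0.0363). Snhg1 and Snhg5 lay higher in every model library than in any normal one, each with a log2 fold change of 0.38 (edgeR adjusted p = 0.0565 and 0.0796). In all, 5 of the 7 members were higher without overlap, against 27.5% of all genes tested, and the median log2 fold change of the members was 0.38 against 0.02.

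Gas5 and Snhg8 overlapped between these groups. Gas5 had 150, 163 and 121 CPM in normal and 168, 174 and 157 CPM in model, a log2 fold change of 0.19 with a 95% interval from -0.13 to 0.51. Snhg8 had 23, 28.9 and 19.6 CPM in normal and 22.6, 29.7 and 19.3 CPM in model, so that the 2 ranges were nearly the same (log2 fold change -0.01, 95% interval -0.50 to 0.49). Both calls of the comparison, at Snhg3 and Snhg12, were lost without normal 1 (0 members called) and without normal 3 (0). Without normal 2, 3 members were called, beside 4136 of all 15074 genes tested. Without model 2, 3 members were called, beside 5436 of 15077. In total marrow, fewer cells of a type and less RNA per cell cannot be told apart.

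QJSB against model asked whether the granule moved the hosts in marrow that had received cyclophosphamide. No member passed the adjusted cutoff, nor did any other gene (0% of 14486 tested; 723 genes had an unadjusted p under 0.05). DESeq2, run without the filter on low counts before the test and so over 21762 genes, called 8, none of them a member. Its own default filter at the adjustment of p was left on. At a looser cutoff, the same fold with an unadjusted p under 0.05 from edgeR, Gas5 and Snhg5 were lower in QJSB, against 1.40% of all genes. All 7 log2 fold changes were negative, from -1.19 to -0.34 with a median of -0.56, against a median of -0.02 over all genes.

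Snhg5, host of Snord50a and Snord50b, had 42.6, 52.5 and 43.1 CPM in model 1 to 3 and 33.5, 12.3 and 15.5 CPM in QJSB 1 to 3. Every QJSB library lay under every model library, and QJSB 2 and QJSB 3 lay far under QJSB 1. The log2 fold change was -1.19 (standard error 0.35, 95% interval -2 to -0.38, edgeR unadjusted p = 0.0095, adjusted p = 0.767). Gas5 had 137, 68.9 and 95.6 CPM in QJSB, also without overlap with model (log2 fold change -0.74, standard error 0.24, edgeR unadjusted p = 0.0136, adjusted p = 0.767). Snhg6 was the third member without overlap, with 11.7, 7.34 and 7.89 CPM in QJSB (log2 fold change -0.53). These 3 of 7 compare with 5.40% of all genes that were lower in QJSB without overlap.

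The other members overlapped because QJSB 1 was as high as model. Snhg1 had 60.7 CPM in QJSB 1 and 31.1 and 35.5 CPM in QJSB 2 and 3, against 60.8, 67.7 and 56.7 CPM in model. Snhg3 had 31.8, 18.2 and 15.5 CPM in QJSB. Snhg12 had 13.1, 6.88 and 7.53 CPM. Snhg8 spread least, with 22, 18.7 and 16.6 CPM. Without QJSB 1, the looser cutoff was passed by 6 of the 7 members, all lower, against 5.91% of all genes in that fit, and the median of the members was -0.91, with -1.75 at Snhg5 and -1.03 at Gas5. No member passed the adjusted cutoff there either, though 3 genes did. Without QJSB 2 the median of the members was -0.39 (Gas5 -0.52, Snhg5 -0.92) and 1 member passed the looser cutoff, lower, against 0.571% of all genes. Without QJSB 3 the median was -0.44 and 2 members passed, both lower, against 0.98% of all genes. With the replicate number as a block, 4 members, all lower, passed the looser cutoff, against 2.74% of all genes. The adjusted one was passed by 18 genes, no member among them. Gas5 then had a log2 fold change of -0.80 and Snhg5 of -1.32 (edgeR adjusted p = 0.279 for both).

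**Figure D2:**
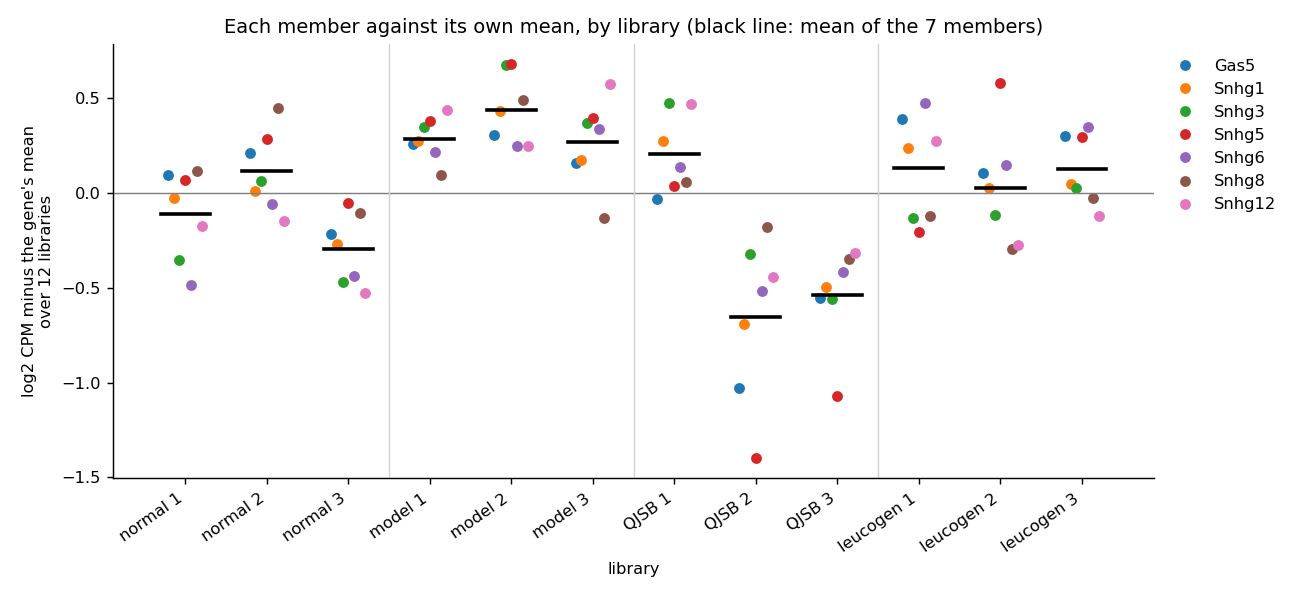
Log2 CPM of each member minus its own mean over 12 libraries (vertical axis), by library, with 1 colour per member and the mean of the 7 members as a black line. The black line stands at 0.29, 0.44 and 0.27 over model 1 to 3, then at 0.20, -0.65 and -0.54 over QJSB 1 to 3.

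Seen library by library, the members kept together in QJSB. QJSB 2 and QJSB 3 had 0 members above their own mean over the 12 libraries, and QJSB 1 had 6 of 7. Normal 3 was the only other library with 0 members above. The share of all genes above their own mean in each library was not counted. The split within QJSB was not particular to the members. The 4 box H/ACA proteins treated below summed to 193 CPM in QJSB 1 and to 97.6 and 83.7 CPM in QJSB 2 and 3. The mean deviation of the members in leucogen was 0.13, 0.03 and 0.13, and in normal -0.11, 0.12 and -0.30. Snhg5 had the widest range, the highest library being 4.27 times the lowest, and Snhg8 the narrowest with 1.79 times. For Gas5 this ratio was 2.67, and for the other members it lay between 2.01 and 2.37.

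Leucogen against model asked the same of the reference drug. No member was called, while 23.1% of 14184 genes were. Gas5 had 184, 151 and 173 CPM in leucogen against 168, 174 and 157 CPM in model, which overlap (log2 fold change 0.05, 95% interval -0.26 to 0.35). Snhg3 came nearest to the cutoff, with 20.8, 21.1 and 23.3 CPM in leucogen, all under the model libraries. Its log2 fold change was -0.53 (standard error 0.16, edgeR adjusted p = 0.0387), short of 1.5-fold, and with total counts in place of TMM it was -0.70 (adjusted p = 0.013) and was called. Rcc1 had a log2 fold change of -0.66 in the same comparison (edgeR adjusted p = 0.0275). Snhg5 was spread from 28.4 to 48.9 CPM over the leucogen mice, about the model values.

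Against normal, leucogen differed at Snhg6 and QJSB at no member, where 37.7% (17.8% higher) and 37.9% of all genes tested were called. Snhg6 had 14.7, 11.7 and 13.5 CPM in leucogen and 7.51, 10.2 and 7.77 CPM in normal, a log2 fold change of 0.67 (standard error 0.18, edgeR adjusted p = 0.00965). It was called in each of the 6 fits that left out 1 library. Mcmdc2, whose end overlaps Snhg6, was at 1.48 ± 0.257 CPM (SD, n = 3) in normal and 0.99 ± 0.49 in leucogen. Snhg1 was the other member higher in leucogen without overlap, against 29.7% of all genes, with 51.1 to 59.2 CPM and 41.7 to 50.5 CPM in normal, and was not called (log2 fold change 0.22, edgeR adjusted p = 0.132). In QJSB the values of Gas5 (log2 fold change -0.52) and Snhg5 (-0.78) were the lowest against normal, with intervals that reached just past 0. Without QJSB 1, both were called lower than normal, against 22.2% of all genes in that fit, Gas5 at -0.82 (edgeR adjusted p = 0.0065) and Snhg5 at -1.35 (edgeR adjusted p = 0.000224). Without QJSB 2 neither was called, with Gas5 at -0.31 and Snhg5 at -0.52, nor without QJSB 3, with -0.48 and -0.62.

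QJSB against leucogen compared the drugs with each other. Gas5 was the only member called, lower in QJSB, where 24.6% of 14266 genes were called and 11.7% were called lower. It had 137, 68.9 and 95.6 CPM in QJSB and 184, 151 and 173 CPM in leucogen. As at Snhg6, the groups did not overlap, which held for 22.6% of all genes in this direction. The log2 fold change was -0.79 (standard error 0.24, edgeR adjusted p = 0.0381), so that its level in leucogen was 1.73 times that in QJSB. The call was lost without any 1 of the 3 leucogen libraries, QJSB 2 or QJSB 3 (0 members called each) and with total counts in place of TMM (adjusted p = 0.107). Zbtb37, whose start overlaps that of Gas5 on the other strand, was also lower in QJSB, by a log2 fold change of -0.68 (edgeR adjusted p = 0.0158).

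Snhg6 (log2 fold change -0.61, edgeR adjusted p = 0.0784) and Snhg5 (-0.97, edgeR adjusted p = 0.0964) missed the adjusted threshold against leucogen and passed the looser cutoff, as 14.8% of all genes did in this direction. With the replicate number as a block, Snhg6 was called too (-0.63, adjusted p = 0.0462). Without QJSB 1, 4 members were called lower in QJSB, against 12.6% of all genes in that fit, namely Gas5 (-1.08), Snhg1 (-0.74), Snhg5 (-1.53) and Snhg6 (-0.85). Snhg3, Snhg8 and Snhg12 had log2 fold changes of -0.03, -0.04 and -0.05, with intervals of -0.62 to 0.56, -0.43 to 0.35 and -0.72 to 0.61. Each group enters 3 of the 6 comparisons, so these share libraries and are not independent of each other.

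**Figure D3:**
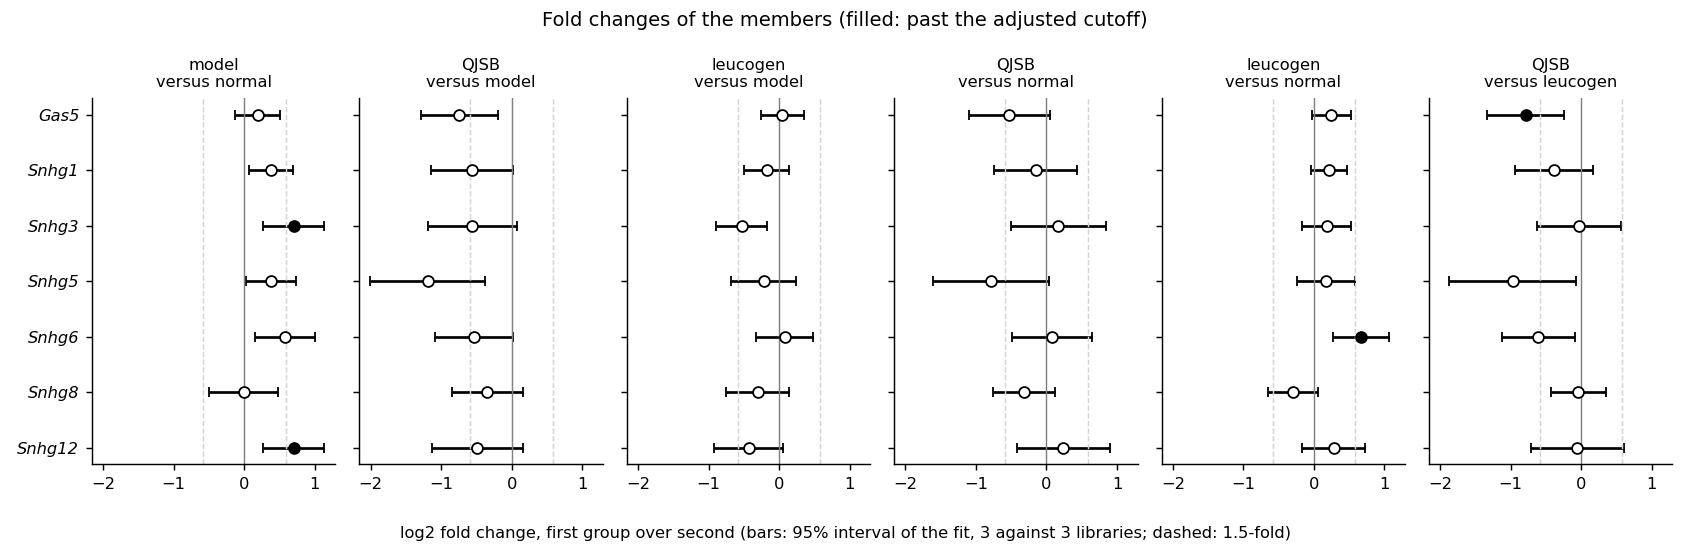
Log2 fold change of each member in the 6 comparisons (horizontal axis, first group over second), with 95% intervals of the edgeR fit of 3 against 3 libraries, filled where the member passed the adjusted cutoff and with dashed lines at 1.5-fold. Filled points stand at Snhg3 and Snhg12 in model versus normal, at Snhg6 in leucogen versus normal and at Gas5 in QJSB versus leucogen.

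Other genes of snoRNA production were read from lists. Of 15 other noncoding hosts listed, 5 had enough counts to be tested (Snhg4, Snhg17, Snhg20, Dancr and Epb41l4aos), of which 0 were called in any of the 6 comparisons. Their log2 fold changes in model against normal were all positive, from 0.09 at Snhg4 to 0.83 at Dancr. Among 21 ribosomal protein genes that carry snoRNAs, 8 rose and 0 fell from normal to model, against 16.1% of all genes higher, and Rps2 was among the 8 (log2 fold change 0.94, edgeR adjusted p = 0.00508). Among 13 other protein-coding hosts, such as the translation factor genes Eef2 and Eef1b2, 5 rose and 0 fell.

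Ribosomal protein hosts and the noncoding members had medians of opposite sign in QJSB against leucogen. Of the 21 ribosomal protein hosts 6 were higher in QJSB and 0 lower, against 12.9% of all genes higher, with Rpl7a at a log2 fold change of 1.5 (edgeR adjusted p = 0.00285). Their fold changes were positive at 11 and negative at 10, while all 7 members had negative values, of which those of Snhg3, Snhg8 and Snhg12 turned positive with total counts in place of TMM. The median was 0.20 for the ribosomal protein hosts and -0.39 for the members, against 0.03 for all genes. From model to leucogen 5 of 21 ribosomal protein hosts and 5 of 13 other protein-coding hosts fell and 0 rose, against 11.5% of all genes lower and 11.6% higher, with Rps2 at -1.13 and Hspa9, a mitochondrial chaperone gene, at -1.13. From model to QJSB, 0 genes of either list were called.

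The box C/D core proteins did not move as 1 group. Fbl, the methyltransferase fibrillarin, rose from normal to model (log2 fold change 0.97, edgeR adjusted p = 0.00669) and was lower in leucogen than in model (-1.67, edgeR adjusted p = 0.00261). Fbl was higher in QJSB than in leucogen (1.65, edgeR adjusted p = 0.00561) and than in normal (0.97, edgeR adjusted p = 0.0244). Nop58, a scaffold protein that itself hosts snoRNAs, had 139 CPM in QJSB 1 and 59 and 59.7 CPM in QJSB 2 and 3, against 127, 145 and 127 CPM in model and 156, 134 and 155 CPM in leucogen. QJSB 2 and 3 were the lowest of the 12 libraries, as at Gas5, while QJSB 1 lay within the model values, and Nop58 was called in 0 of the 6 comparisons. Nop56, its partner, had 101, 51.2 and 49.4 CPM in QJSB. Nhp2l1, the other protein of this list tested, was lower than normal in QJSB (-0.99, edgeR adjusted p = 0.0051) and in leucogen (-0.74, edgeR adjusted p = 0.000416). In QJSB against model the log2 fold changes of all 4 were negative, from -0.65 to -0.02, and 0 were called. Against 16.1% of all genes higher from normal to model and 11.5% lower from model to leucogen, 2 of the 4 box H/ACA proteins (Gar1 and Nhp2) rose in the former comparison and 3 of the 4 were lower in the latter, with Nhp2 at -1.07 (edgeR adjusted p = 0.0036). Beside the same shares, 6 of 10 assembly factors rose from normal to model, with Naf1 at 1.10 (edgeR adjusted p = 0.00211), and 4 were lower in leucogen than in model. Unlike the members, 2 of the 4 box H/ACA proteins and 4 of the 10 assembly factors were higher in QJSB than in leucogen. None of either list was lower there, and 12.9% of all genes were higher.

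At most 2 of the 10 factors of nonsense-mediated decay, the pathway that degrades spliced host RNAs, were called in either direction in any comparison. From normal to model 1 rose (Smg8, log2 fold change 0.64) and 1 fell (Smg6, the endonuclease, -0.66), shares no higher than those of all genes, of which 16.1% rose and 2803 of 14752 fell. In QJSB against leucogen 1 was higher (Upf1, the central helicase, 0.76, edgeR adjusted p = 0.00596) and 1 lower (Upf2, -0.85, edgeR adjusted p = 0.00567), near the shares of all genes (12.9% and 11.7%). Upf1 (-0.63) was lower and Upf2 (0.62) and Smg9 (0.59) were higher in leucogen than in model, beside 11.5% and 11.6% of all genes. In QJSB against normal 2 were higher (Smg8, 0.96, and Upf3a, 0.66), beside 18.0% of all genes. There 2 were also lower (Smg6, -0.74, and Upf2, -0.60), beside 19.9%. In leucogen against normal 0 were called. In QJSB against model 0 of the 10 were called.

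**Figure D4:**
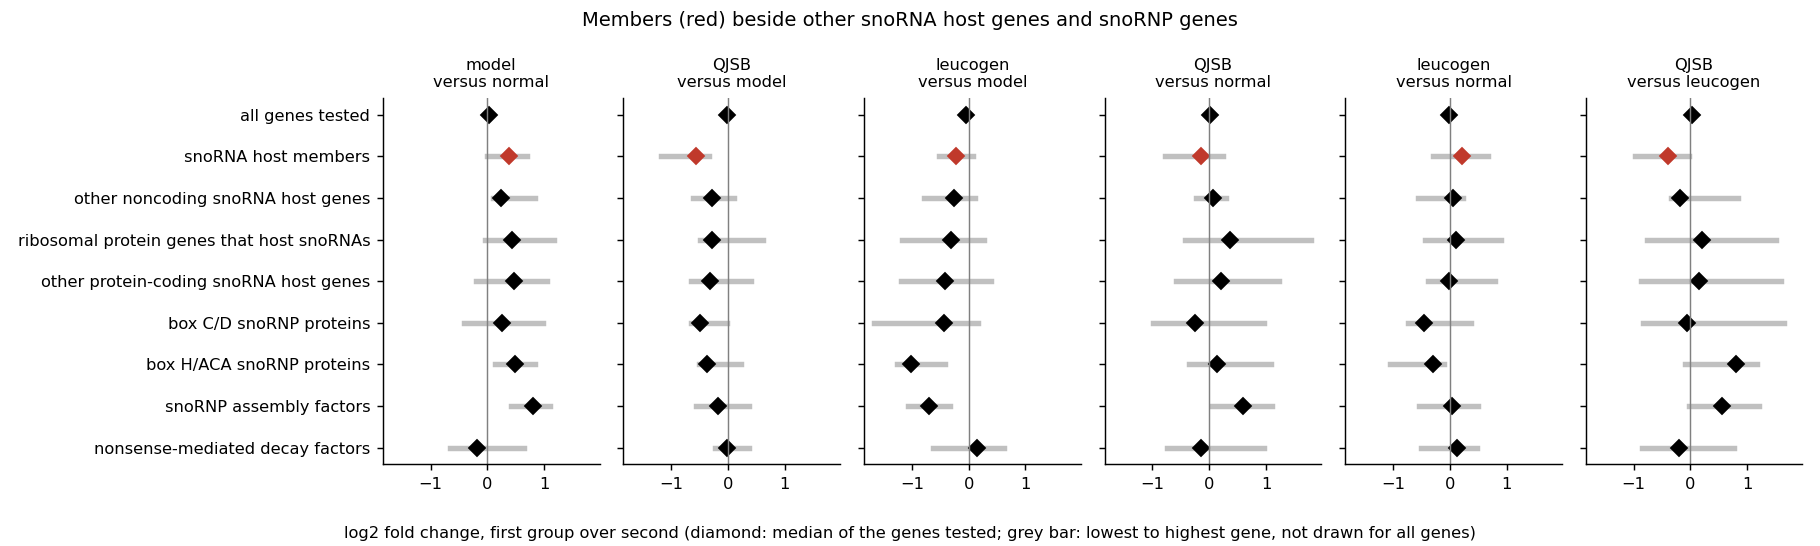
Median log2 fold change (diamonds) of the members in red and of the other lists in black for the 6 comparisons, with the lowest and highest gene of each list as a grey bar. In QJSB versus leucogen the median of the members was -0.39, with ribosomal protein hosts at 0.20, H/ACA proteins at 0.80 and assembly factors at 0.56.

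Genes that mark cell types also differed between the libraries. All 8 late neutrophil genes (Ltf, Camp, Ngp, Cd177, Mmp8, Mmp9, Lcn2 and Retnlg) were detected in every library, and their summed level was 3260 CPM in QJSB 1 against 18300 and 12300 CPM in QJSB 2 and 3. The model libraries had sums of 1990, 6180 and 5040 CPM. Sums were 9790 to 10400 CPM in normal and 14000 to 18100 CPM in leucogen. QJSB 1 and the 3 model libraries thus had the lowest sums of the 12 and also the highest mean deviations of the members. Leucogen had sums as high as QJSB 2 and 3 with Gas5 at 151 to 184 CPM. The 5 promyelocyte genes (Mpo, Elane, Prtn3, Ctsg and Ms4a3) were also detected in every library. Their sums lay between 8170 and 9020 CPM in QJSB, 6580 and 9590 in model, 3410 and 4560 in leucogen, and 732 and 948 in normal. In QJSB 1 to 3 they summed to 9020, 8850 and 8170 CPM. Other lists also set QJSB 1 apart, the pre-B genes at 47.8 CPM against 8.8 and 9.79 CPM in QJSB 2 and 3, and the mature B genes at 86.8 CPM against 40.1 and 48.5 CPM. The sum of the proliferation genes was lower in QJSB 1, at 2920 CPM against 3960 and 3990 CPM.

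The 6 proliferation genes, Mki67 among them, summed to 6960 to 7220 CPM in normal and to 2820 to 3990 CPM in the cyclophosphamide libraries. Erythroid, pre-B and mature B cell genes were far lower in all cyclophosphamide groups than in normal, with the pre-B genes at 1180 to 1380 CPM in normal and 8.41 to 221 CPM elsewhere, where up to 2 of the 7 had no counts. The 5 mature B genes summed to 1740 to 1760 CPM in normal and 29.1 to 161 CPM elsewhere, the 5 T cell genes to 25.4 to 38.9 and 7.50 to 17 CPM, and in each list up to 3 of the 5 had no counts outside normal. The 4 monocyte genes summed to 763 to 916 CPM in normal and 1280 to 2850 CPM elsewhere. F13a1 made up much of this sum, with a mean of 502 CPM in normal and 1640 CPM in model. Against normal, all 4 had positive fold changes in model. In QJSB and in leucogen 2 were positive and 2 negative, the lowest at -0.11 and -0.16. The part of these shifts in the values of the members was not tested.

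**Figure D5:**
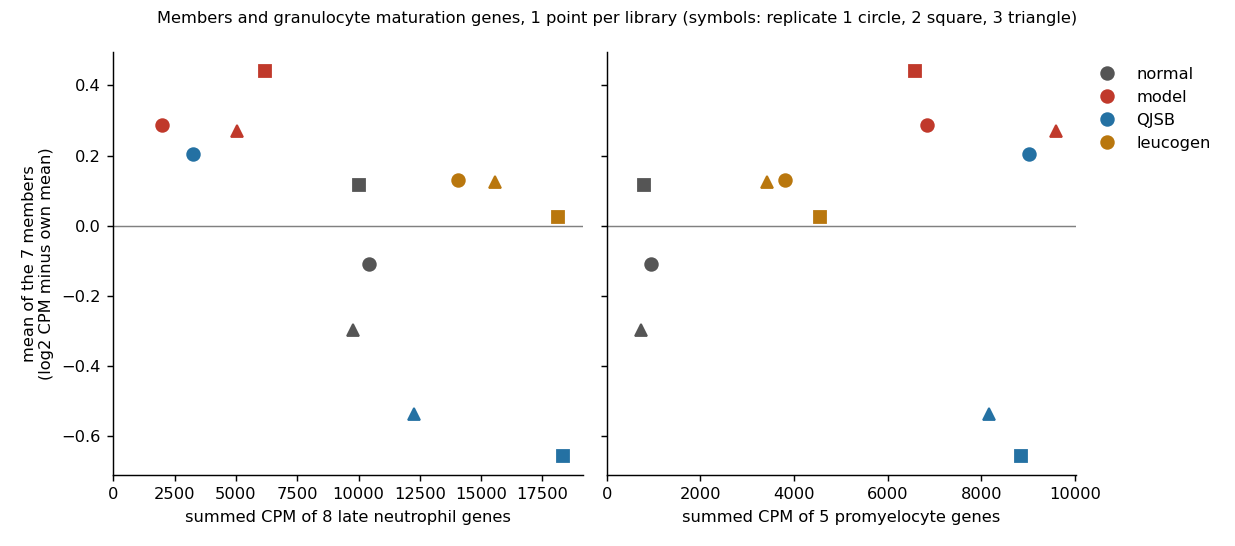
Mean deviation of the 7 members (vertical axis, log2 CPM minus own mean) against the summed CPM of 8 late neutrophil genes (left) and 5 promyelocyte genes (right), 1 point per library, coloured by group. QJSB 2 and QJSB 3 (18300 and 12300 CPM at left) lie lowest, while leucogen libraries with sums of 14000 to 18100 CPM lie near 0.

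The genes whose profile over the 12 libraries was most like that of Gas5 were sought by the root mean square difference of log2 CPM, each gene centred on its own mean. The search covered 8789 genes with a mean of at least 10 CPM. Genes whose symbol starts with Gm and a digit or ends in Rik, many of them noncoding, were left out. Nol8 (0.15), Pigw (0.153), Nop58 (0.161), Slc5a3 (0.166) and Cnbp (0.171) were nearest. Nol8 encodes a nucleolar protein and Cnbp a nucleic acid-binding protein. Snhg1 was the nearest of the other members, in place 8 (0.178), followed by Snhg6 in place 109 (0.26), Snhg5 in place 352 (0.321), Snhg8 in place 665 (0.355) and Snhg3 in place 822 (0.368). Snhg12 was at 0.353 and was not ranked, since its mean lay under 10 CPM. For the mean profile of the 7 members the nearest genes were Gtpbp4 (0.101), Hsp90b1 (0.104), Uchl3 (0.118), Nol8 (0.136) and Nip7 (0.136). Gtpbp4 and Nip7 encode factors of ribosome assembly, and Hsp90b1 a chaperone of the endoplasmic reticulum. The distances describe these 12 libraries, which share groups and scaling.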

How the data were processed

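The authors depleted ribosomal RNA and sequenced 12 libraries, 3 per group. Reads passed through Seqtk and were aligned by Hisat2 (GRCm38.p4, or mm10 in the submitters' processing notes). The counting program is not given in the sources used here. The authors deposited whole-number read counts per gene without normalization and FPKM, scaled by transcript length and total fragments; 0 sample columns were left unused. Counts were tested with edgeR 4.0.16 in R 4.3.3 (TMM, filterByExpr, robust quasi-likelihood fits of the 2 groups compared, Benjamini-Hochberg adjustment over all genes tested), and log2 CPM used a prior count of 2. Standard errors and 95% intervals come from these fits, whose smallest groups are 3 libraries. Library totals of 11172547 to 18545198 set the counting error, which the spread between mice exceeded.

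The members, lists and tests were chosen with earlier results of these data known. All 7 members were tested in all 6 comparisons. Named genes of the lists are those called without overlap with the largest changes, up to 2 each way, beside genes that overlap a member and, chosen after their values were seen, Nop56, Nop58 and the 5 noncoding hosts tested. Listed genes without a row under the listed name were not analysed here.

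Alternatives were DESeq2 1.42.0 with no filter before the test, its size factors, a block on the replicate number, total counts, no filter, a minimum of 10 counts in each library, a joint fit of the 4 groups, limma-trend (3.58.1) on log2(FPKM + 0.1) and each library left out. The default filter of DESeq2 at the adjustment of p was left on. Deviations from group means of same-numbered libraries correlated at 0.453, 0.136 and 0.102 for QJSB and model. For QJSB and leucogen the values were 0.174, 0.157 and 0.11. In the other 4 comparisons they were not all over 0.1. The same-numbered library was the best match for 1 library in QJSB and model and for 3 in QJSB and leucogen. Whether the numbers mark pairs was read from the data alone. The main fits treated no libraries as pairs, and the block on the replicate number was an alternative in every comparison. Sequences and positions came from GENCODE M21 and RefSeq.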

Additional observations from a re-analysis of the deposited data

How the results depend on the processing

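Every fold change of a member and every count of calls was recomputed under the other settings and with each library left out. Member values kept direction and side of the cutoff in 315 cases under the other settings, passed it anew in 8, lost it in 2 and turned direction in 11. With 1 library left out these were 218, 7, 9 and 18. Calls over all genes in QJSB against model came to 8 with DESeq2, which was run with no filter on low counts before the test in all comparisons, and 18 with the replicate block. Members called in leucogen against model came to 1 with total counts and 1 with limma on FPKM (both Snhg3, lower). In these fits 18.7% and 15.2% of all genes were called lower. Members called in QJSB against leucogen came to 2 with DESeq2, 2 with all 12 libraries and 2 with the replicate block, all lower. In these fits 8.68%, 11.6% and 12.5% of all genes were called lower. With total counts and with limma on FPKM 0 members were called there. The replicate block changed no other count by over 1.5 times. With 1 library left out, members called ranged from 0 to 3 in model against normal, 0 to 2 in QJSB against normal and 0 to 4 in QJSB against leucogen. Among all genes tested, the calls in these comparisons ranged from 4136 to 5436, 4487 to 6151 and 1544 to 3585. Genes called ranged from 0 to 3 in QJSB against model and 1239 to 3953 in leucogen against model. The cause was not tested.

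Total counts moved the median of all genes from 0.02 to 0.14 in model against normal (56.3% of calls higher, 45.8% with TMM), from -0.05 to -0.22 in leucogen against model (30.2% against 50.1%, and 32.6% with limma on FPKM) and from 0.03 to 0.12 in QJSB against leucogen (60.6% against 52.3%). Small fold changes turned direction: Snhg8 in model against normal (0.12 with total counts, 0.00 with no filter, 0.11 with limma), Gas5 (-0.13 with total counts, -0.13 with limma) and Snhg6 (-0.09 and -0.10) in leucogen against model, and Snhg3 (0.09), Snhg8 (0.06, limma 0.04) and Snhg12 (0.05) in QJSB against leucogen with total counts. With 1 library left out, ranges that crossed 0 were -0.18 to 0.15 for Snhg8 in model against normal, -0.01 to 0.13 for Gas5 in leucogen against model, -0.03 to 0.35 for Snhg5 in leucogen against normal, -0.51 to 0.03 (Snhg1), -0.21 to 0.37 (Snhg3), -0.16 to 0.22 (Snhg6) and -0.11 to 0.42 (Snhg12) in QJSB against normal, and -0.41 to 0.16 (Snhg3), -0.16 to 0.04 (Snhg8) and -0.41 to 0.14 (Snhg12) in QJSB against leucogen. With 3 mice a group and counts as low as 91, a missed threshold does not show that a member did not differ.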
